A study of Mus musculus with 22 samples.

Results

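The mitochondrial genome transcripts of mouse CD8+ T cells are described here across 22 RNA sequencing libraries. Members were all rows of the expression table whose gene name starts with mt-, a choice made by name and not by level, and 29 of 46297 rows met it. The libraries held P14 cells, T cells with a transgenic receptor for an epitope of lymphocytic choriomeningitis virus, on the C57BL/6 strain at an age of 6 to 12 weeks. VHL-deficient cells were set against wild-type (WT) cells in 5 settings: tumor at day 11 (3 VHL-deficient and 3 WT libraries), unsplit tumor at day 7, spleen at day 7, and a Trm and a nonTrm sort of day 7 tumor (2 and 2 libraries each). Each replicate pooled 5 mice. The sources used here do not say how VHL was removed, which tumor was used, from what event days were counted or which markers defined Trm. Pooled replicates are described as biological, so p-values measure the spread between such pools, as moderated across genes by the fit.

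VHL recognises, for a ubiquitin ligase, hypoxia-inducible factors (HIFs) that are destroyed when oxygen is present, and cells without it keep HIF active. The mitochondrial genome is a small circle transcribed from each strand into long precursors, from which transfer RNAs are cut out to free the ribosomal RNAs and messages between them. Its messages encode core subunits of respiratory complexes I, III and IV and of ATP synthase, while all other subunits and the whole of complex II come from nuclear genes. HIF is known to shift cells from respiration to glycolysis and to raise receptors for mitophagy, the removal of whole mitochondria.

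The GENCODE annotation of the mm10 build places 37 genes on the mitochondrial genome, 13 messages, 2 ribosomal RNAs and 22 transfer RNAs, and 9 of them lie on the minus strand (mt-Nd6 and 8 transfer RNAs). The table held 12 messages, 2 ribosomal RNAs and 15 transfer RNAs. The other 8 genes were not analysed here (mt-Nd4l, mt-Tn, mt-Ty, mt-Ts1, mt-Td, mt-Tk, mt-Tr and mt-Th). Values are reads divided by a size factor per library, here called scaled counts, and a read was worth 0.684 to 2.73 scaled counts. The members took 2.89% to 12.15% of the 3375558 to 10211060 reads of a library. Ribosomal RNAs made up 87.6% of all member reads (8991486 reads over 22 libraries), messages 12.4% (1273820) and transfer RNAs 0.00233% (239). Of the 29 rows, 11 reached 10 scaled counts in at least 2 libraries and were tested. These were mt-Rnr1, mt-Rnr2, mt-Nd1, mt-Nd2, mt-Co1, mt-Nd3, mt-Nd4, mt-Nd5, mt-Nd6 and mt-Cytb, which reached that level in every library, and mt-Tp, which reached it in a few. The 3 rows mt-Tv, mt-Atp6 and mt-Tl2 had no read in any library.

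Some messages were almost without reads although their neighbours on the same precursor were abundant. Over all 22 libraries, mt-Co1 had 912839 reads, whereas mt-Co2 and mt-Co3, which encode the other mitochondrial core subunits of complex IV, had 1 read each. The ATP synthase messages mt-Atp8 and mt-Atp6 had 1 read and 0 reads. A block on the minus strand of chromosome 1, chr1:24611535-24616197 (4663 bases, mm10), holds 7 annotated unprocessed pseudogenes that copy this stretch of the mitochondrial genome. Gm28661 matched the first 681 of the 684 bases of mt-Co2 at 100% identity, Gm28437 783 of 784 bases of mt-Co3 at 100%, and Gm10925 678 of 681 bases of mt-Atp6 at 100%. Gm10925 also covers the last 43 bases of mt-Atp8, where that gene overlaps mt-Atp6. The remaining 161 bases of mt-Atp8 have no annotated copy, but the gap between the copies of mt-Atp6 and mt-Co2 measured 233 bases on chromosome 1 and 233 bases on the mitochondrial genome. The first 60 bases of mt-Co2 and mt-Co3 and of their copies are shown because no read from within them could be placed by sequence alone, and no base is in capitals because none differed.
mt-Co2 (chrM:7013-7072, plus strand): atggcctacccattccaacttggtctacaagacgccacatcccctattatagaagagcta
Gm28661 (chr1:24615506-24615565, minus strand): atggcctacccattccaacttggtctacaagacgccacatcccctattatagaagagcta
mt-Co3 (chrM:8607-8666, plus strand): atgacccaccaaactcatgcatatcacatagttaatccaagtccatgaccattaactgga
Gm28437 (chr1:24613912-24613971, minus strand): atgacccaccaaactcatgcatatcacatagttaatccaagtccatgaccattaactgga

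The same block copies other members in part or with a difference. Gm29216 matched the last 483 of 1545 bases of mt-Co1 at 99.8%, with the single substitution A1066T (position counted from the first base of mt-Co1, the base of mt-Co1 first). Gm28438 matched 345 of 348 bases of mt-Nd3 at 99.7%, with the single substitution T3C counted from the first base of mt-Nd3. Gm28439 matched the first 876 of 1378 bases of mt-Nd4 at 100%, and Gm10222 matched 294 of 297 bases of mt-Nd4l at 100%. Gm11410 on chromosome 4 is a more diverged copy, with 92.9% identity to mt-Cytb over 1142 bases. The windows below are shown because in them the capitals mark every base that tells a member from its copy.
mt-Nd3 (chrM:9459-9518, plus strand): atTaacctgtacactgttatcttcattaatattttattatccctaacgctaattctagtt
Gm28438 (chr1:24613060-24613119, minus strand): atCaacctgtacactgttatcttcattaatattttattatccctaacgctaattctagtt
mt-Co1 (chrM:6390-6449, plus strand): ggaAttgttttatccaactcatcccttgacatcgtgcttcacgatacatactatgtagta
Gm29216 (chr1:24616129-24616188, minus strand): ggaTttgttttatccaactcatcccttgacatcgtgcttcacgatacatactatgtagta
mt-Cytb (chrM:14685-14744, plus strand): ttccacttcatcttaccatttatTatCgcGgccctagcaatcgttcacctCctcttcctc
Gm11410 (chr4:80004529-80004588, plus strand): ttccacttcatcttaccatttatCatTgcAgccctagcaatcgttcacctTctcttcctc

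The copies drew few reads themselves. Over all libraries Gm10925 had 151 reads, Gm28437 128, Gm28661 85, Gm29216 210, Gm28439 21, Gm10222 9 and Gm28438 4. Members with a full-length copy at or above 99.7% identity had from 0 to 1170 reads, the highest being mt-Nd3, while ribosomal RNAs and messages with no copy in the block had from 3454 (mt-Nd6) to 8855308 (mt-Rnr2) reads. No source used here says how reads that fit several places were treated, and its part in the low counts was not tested. Levels of mt-Co2, mt-Co3, mt-Atp6 and mt-Atp8 are therefore not described further. For the members copied in part, mt-Co1 averaged 37997 scaled counts per kb of its whole length in day 11 WT tumor cells. If all its reads came from the 1062 bases outside the copy, the level would be 55277 ± 9404 (SD, n = 3) per kb. For mt-Nd4 the level was 2079 per kb of its whole length and, under the same assumption, 5707 ± 758 over 502 bases outside the copy. Where along a gene its reads fell is not known, so that assumption was not tested.

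**Figure D1:**
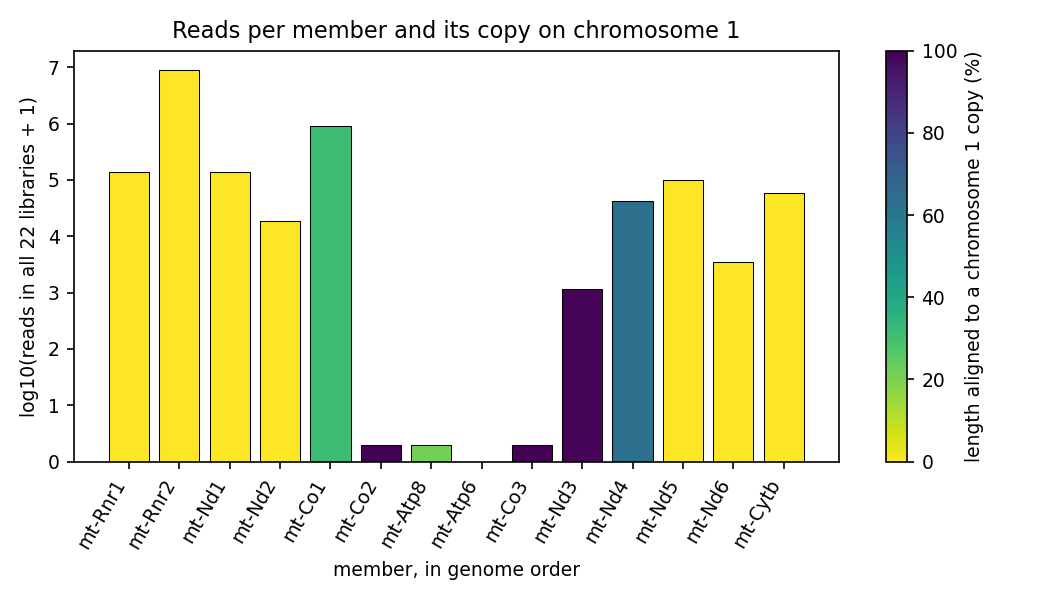
Reads per ribosomal RNA and message of the mitochondrial genome, summed over all 22 libraries on a log10(reads + 1) axis, in genome order. Colour gives the percent of each gene's length aligned to a chromosome 1 copy at or above 90% identity. mt-Co2 and mt-Co3, with a full-length identical copy, hold 1 read each, beside 912839 for mt-Co1, and mt-Atp6 has no bar because it has no read.

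The abundant members spanned several orders of magnitude per length, the scale used for any comparison between genes. In day 11 VHL-deficient tumor cells mt-Rnr2, the large ribosomal RNA, averaged 109079 ± 10154 scaled counts per kb (SD, n = 3), against 348162 ± 41938 in WT cells. mt-Co1, the catalytic subunit of complex IV, averaged 11220 ± 1293 per kb in VHL-deficient cells, against 37997 ± 6464 in WT cells. mt-Rnr1, the small ribosomal RNA, averaged 3580 ± 656.5 per kb in VHL-deficient cells, against 9512 ± 1128 in WT cells. By whole length, the order below these in WT cells was mt-Nd1 (9113 ± 3064 per kb), mt-Nd5 (4061 ± 860), mt-Cytb (3812 ± 852), mt-Nd4 (2079 ± 276), mt-Nd2 (1045 ± 234), mt-Nd6 (421 ± 12.7) and mt-Nd3 (290 ± 82.5). In that order mt-Rnr1 and mt-Nd1, and mt-Nd5 and mt-Cytb, lay within a spread of each other. The place of mt-Nd3 is uncertain, because its copy Gm28438 matched 345 of its 348 bases with a single substitution. The place of mt-Nd4 holds for its whole length alone. If all its reads came from the bases outside its identical copy, it would stand at 5707 ± 758 per kb, above mt-Nd5 and mt-Cytb, which was not tested. The order in VHL-deficient cells was nearly the same, with mt-Nd1 at 4146 ± 294 per kb above mt-Rnr1.

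The ribosomal RNAs, which neighbour each other on the precursor, were unequal in reads. mt-Rnr2 had 44.2 to 85.35 times the reads of mt-Rnr1 in the 22 libraries. mt-Rnr1 is 955 bases long with 2 runs of 5 or more A and a longest run of 5, and mt-Rnr2 is 1582 bases long with 9 such runs and a longest run of 7. No source used here says whether the library preparation selected RNA by its A tail, and its part in the inequality was not tested.

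As a share of all reads, mitochondrial reads were lower in VHL-deficient than in WT cells in all 5 settings, with no overlap of libraries in any of them. In day 11 tumor the members took 2.89%, 3.315% and 3.06% of reads in VHL-deficient libraries, against 8.13%, 9.265% and 10.01% in WT libraries. In unsplit day 7 tumor they took 4.141% and 3.925% in VHL-deficient libraries, against 7.56% and 9.46% in WT libraries. The Trm sort gave 5.575% and 4.235% in VHL-deficient cells, against 12.15% and 11.61% in WT cells. The nonTrm sort gave 3.45% and 4.08% in VHL-deficient cells, against 11.54% and 11.35% in WT cells. In spleen the gap was narrower, with 5.003% and 3.995% in VHL-deficient libraries, against 6.68% and 6.07% in WT libraries. Without nuclear ribosomal RNA in the denominator the spleen genotypes overlapped, at 8.665% and 6.048% in VHL-deficient libraries, against 10.44% and 8.549% in WT libraries. VHL-deficient spleen replicate 1 had 42.26% nuclear ribosomal RNA. The ratio of mean shares, VHL-deficient over WT, was 0.338 in day 11 tumor, 0.474 in unsplit day 7 tumor, 0.413 in Trm, 0.329 in nonTrm and 0.706 in spleen. A ratio of summed scaled counts, which the share of other abundant RNAs does not enter directly, was 0.315, 0.423, 0.355, 0.383 and 0.84 in the same order. As sums over the members these ratios are descriptions and carry no test. They mostly follow mt-Rnr2, which made up 84.35% to 88.17% of the member reads of a library and was called by limma in none of the 5 settings. With messages alone in the numerator the ratio of mean shares was 0.347, 0.446, 0.354, 0.376 and 0.749 in the same order. In bulk samples fewer mitochondria per cell, fewer cells rich in mitochondria and less RNA per mitochondrial genome cannot be told apart.

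**Figure D2:**
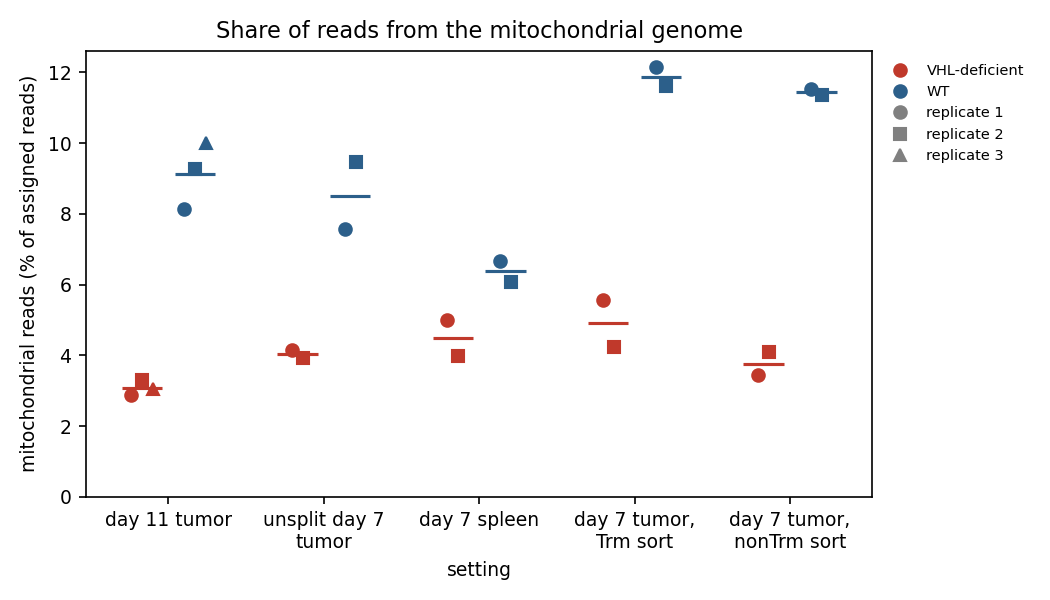
Percent of all assigned reads that came from the 29 members (y axis) in each library, by setting, with VHL-deficient libraries (red) left of WT libraries (blue), the marker shape giving the replicate and the bar the group mean. VHL-deficient libraries lie between 2.89% and 5.575% and WT libraries between 6.07% and 12.15%.

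Facts of the whole series bear on these values. Vhl had 0 to 32 reads in the 11 VHL-deficient libraries, against 60 to 280 in the 11 WT libraries. All 8 CD8 T cell markers examined (Cd8a, Cd8b1, Cd3e, Cd3d, Cd3g, Cd2, Lck and Cd247) had reads in every library, as the label of the cells requires. Nuclear ribosomal RNA took 26.9% to 45.7% of reads. The 45.7% belonged to VHL-deficient nonTrm replicate 2, which stands apart, where Malat1, a nuclear long RNA, reached 34358 scaled counts (4839 to 15027 elsewhere) and with a read worth 2.73 scaled counts. Its scaled counts of mitochondrial RNAs were high (383590 for mt-Rnr2) while its mitochondrial share of 4.08% lay among those of the other VHL-deficient libraries. The B cell marker Ighm was lower in VHL-deficient cells in every setting, at 74.8 ± 36.1 against 427 ± 134 scaled counts in day 11 tumor (log2 fold change -2.57, SE 0.37, adjusted p = 1.71e-04 by limma). The summed B cell markers ranged from 40.7 to 313 scaled counts in VHL-deficient libraries, against 296 to 1075 in WT libraries, while the summed CD8 T cell markers ranged from 24229 to 70928 over all libraries. Nearly all of that sum was Ighm: the B cell marker Ms4a1 had 0 to 2 reads per library, with a read in 7 of 22 libraries, and Cd79a had 0 to 7 reads. Summed macrophage markers ranged from 13.9 to 143 scaled counts and melanoma markers from 25.2 to 98.3, and the highest neutrophil sum was 728, in a WT day 11 library.

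In day 11 tumor, the setting with 3 libraries per genotype, 8 of the 10 members that reached the filter in every library were called lower in VHL-deficient cells (limma on log2 scaled counts, Benjamini-Hochberg adjusted p under 0.05 over 14327 genes). Of all genes tested, 6.87% were called there and 2.39% were called lower. The median log2 fold change of the 10 members was -1.49, against 0.07 over all genes tested. For all 10 every VHL-deficient library lay below every WT library, as for 17.9% of all genes tested.

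Complex IV and complex III were each represented by a single message that reached the filter. mt-Co1 had 15707, 19564 and 16735 scaled counts in VHL-deficient libraries, against 48563, 59021 and 68530 in WT libraries. Every VHL-deficient library was below every WT library, by a log2 fold change of -1.75 (SE 0.32, adjusted p = 0.00183), or 3.37-fold lower. mt-Cytb, the cytochrome b of complex III, had 1226, 1807 and 1380 scaled counts in VHL-deficient libraries, against 3337, 4468 and 5277 in WT libraries. It fell 2.95-fold (log2 fold change -1.56, SE 0.27, adjusted p = 8.44e-04).

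Complex I, which takes electrons from NADH, has the most mitochondrial subunits, and 5 of the 6 measured messages were called lower. mt-Nd5, a membrane subunit of the proton-pumping arm, had 2049, 2605 and 2369 scaled counts in VHL-deficient libraries, against 6094, 6982 and 9145 in WT libraries. Its fall of 3.13-fold (log2 fold change -1.65, SE 0.25, adjusted p = 2.79e-04) had the smallest adjusted p of the members. mt-Nd4, another subunit of that arm, had 1090, 1272 and 1203 scaled counts in VHL-deficient libraries, against 2491, 2852 and 3251 in WT libraries (log2 fold change -1.26, SE 0.20, adjusted p = 4.13e-04). mt-Nd1, which lies at the joint of the arms, had 3699, 4260 and 3943 scaled counts in VHL-deficient libraries, against 6690, 7391 and 12083 in WT libraries. The highest WT value, of replicate 3, stood well above the other WT values, and the fall was smaller, at -1.09 (SE 0.27, adjusted p = 0.0182).

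mt-Nd6 is the only message read from the other strand. It had 92.9, 98.4 and 95.3 scaled counts in VHL-deficient libraries, against 219, 212 and 225 in WT libraries. Both groups were narrow and the fall was 2.27-fold (log2 fold change -1.18, SE 0.32, adjusted p = 0.0286). mt-Nd6 overlaps mt-Nd5 at its end and lies opposite the plus-strand precursor, and without stated strand-specific counting its reads cannot be told apart from antisense ones. mt-Nd3, a short message with a nearly identical copy as shown above, had 22.1, 27.67 and 27.45 scaled counts in VHL-deficient libraries, against 87.5, 81.7 and 134 in WT libraries (log2 fold change -1.90, SE 0.54, adjusted p = 0.0372). Its counts are uncertain for that reason. mt-Nd2 was the message that did not pass, with 550, 572 and 537 scaled counts in VHL-deficient libraries, against 841, 1088 and 1326 in WT libraries. Its log2 fold change was -0.95 (SE 0.33, adjusted p = 0.0891).

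Of the ribosomal RNAs, mt-Rnr1 passed the test and mt-Rnr2 did not. mt-Rnr1 had 3139, 4137 and 2981 scaled counts in VHL-deficient libraries, against 8102, 8913 and 10237 in WT libraries. It fell 2.67-fold (log2 fold change -1.42, SE 0.33, adjusted p = 0.0107). mt-Rnr2 had 160105, 190694 and 166889 scaled counts in VHL-deficient libraries, against 482263, 555401 and 614714 in WT libraries. Its groups were far apart, at a log2 fold change of -1.67, yet with an SE of 0.60 the adjusted p was 0.104 by limma. That SE comes from the fit over all libraries, moderated across genes by a trend with level, and is not the spread of the day 11 libraries alone. mt-Rnr2 was called under 8 of 32 alternative settings, with an adjusted p between 4.90e-04 and 0.271. mt-Co1, mt-Nd4, mt-Nd5 and mt-Cytb were called under all 32. The number of members called was 4 when VHL-deficient replicate 1, VHL-deficient replicate 3 or WT replicate 3 was left out, 5 when VHL-deficient replicate 2 was, and 10 without VHL-deficient nonTrm replicate 2.

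**Figure D3:**
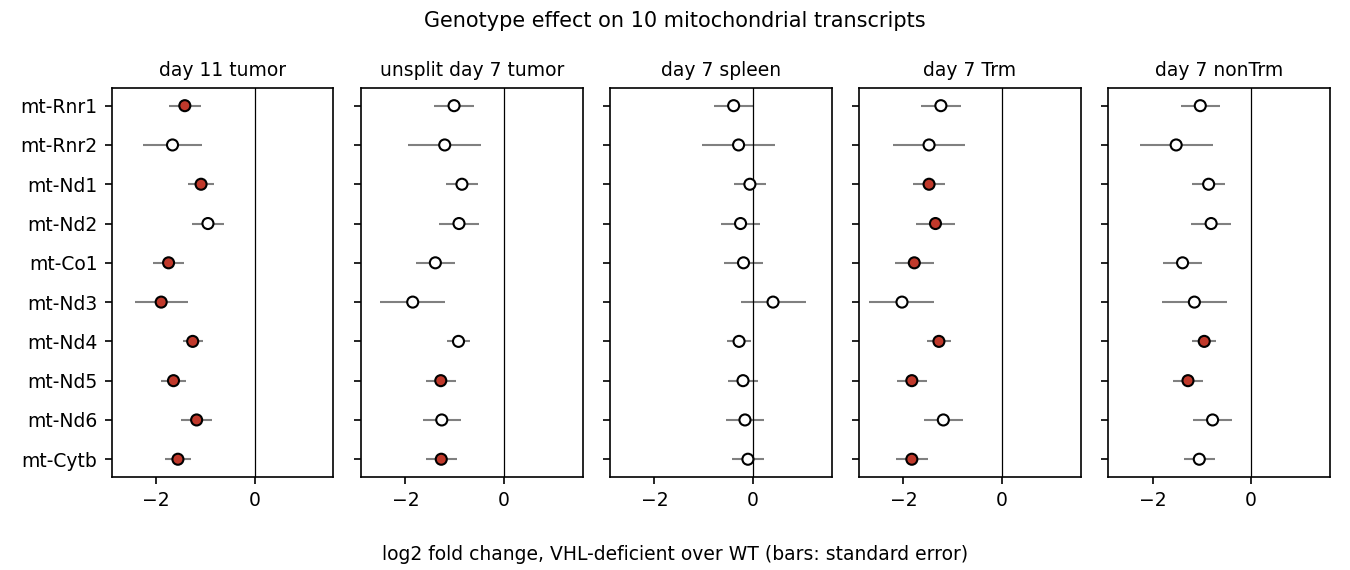
Log2 fold change, VHL-deficient over WT, of the 10 members that reached the filter in every library, in the 5 settings, with bars of 1 standard error from the fit over all libraries. Filled points passed an adjusted p of 0.05: 8 in day 11 tumor, 2 in unsplit day 7 tumor, 0 in spleen, 6 in Trm and 2 in nonTrm.

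In the day 7 Trm sort 6 of the 10 members were called lower in VHL-deficient cells, as were 5.03% of all genes there. The median log2 fold change was -1.48, against 0.09 over all genes, and for all 10 every VHL-deficient library lay below every WT library, as for 25% of all genes. mt-Nd5 had 3494 and 2096 scaled counts in VHL-deficient libraries, against 10646 and 8669 in WT libraries, a log2 fold change of -1.83 (SE 0.31, adjusted p = 7.91e-04). mt-Cytb had 2181 and 1180 in VHL-deficient libraries, against 6686 and 4882 in WT libraries (-1.83, SE 0.32, adjusted p = 0.00136). Both messages were about as far apart as mt-Co1, with 32218 and 23643 scaled counts in VHL-deficient libraries, against 109682 and 81675 in WT libraries (-1.78, SE 0.40, adjusted p = 0.00728). mt-Nd4 (-1.28, adjusted p = 0.00236), mt-Nd1 (-1.48, adjusted p = 0.00778) and mt-Nd2 (-1.35, adjusted p = 0.0376) also fell. mt-Rnr1 (-1.24, adjusted p = 0.0535), mt-Nd3 (-2.03, adjusted p = 0.0556), mt-Nd6 (-1.19, adjusted p = 0.0578) and mt-Rnr2 (-1.48, adjusted p = 0.212) did not pass. With mt-Tp the count was 7, and it was 3 with only the compared groups fitted, 11 with voom, 1 without VHL-deficient Trm replicate 2 and 3 without WT Trm replicate 1.

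In the day 7 nonTrm sort 2 of the 10 members were called lower, as were 0.67% of all genes. The median log2 fold change was -1.04, against 0.02 over all genes, and for 7 of the 10 every VHL-deficient library lay below every WT library, as for 14.4% of all genes. mt-Nd5 had 1970 and 3342 scaled counts in VHL-deficient libraries, against 5802 and 6740 in WT libraries (-1.28, SE 0.31, adjusted p = 0.0269). mt-Nd4 had 1173 and 1405 in VHL-deficient libraries, against 2478 and 2488 in WT libraries (-0.95, SE 0.24, adjusted p = 0.0422). The VHL-deficient libraries differed from each other for mt-Nd5 and also for mt-Co1, with 21235 in replicate 1 and 35242 in replicate 2, against 68744 and 74940 in WT libraries (-1.39, SE 0.40, adjusted p = 0.0696). Without VHL-deficient nonTrm replicate 2, the library that stands apart, 6 members were called lower and the ratio of shares was 0.301. Fitted on the compared groups alone, no member was called, and mt-Nd4 was called in 16 of 32 alternative settings. The count was 1 without the other VHL-deficient nonTrm library and 0 without either WT nonTrm library, and 1 without any of the 3 VHL-deficient day 11, WT day 11 replicate 1 or 2, either VHL-deficient unsplit tumor or any spleen library.

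In unsplit day 7 tumor 2 of the 10 members were called lower, as were 0.223% of all genes. The median log2 fold change was -1.23, against 0.03 over all genes, and for all 10 every VHL-deficient library lay below every WT library, as for 23.6% of all genes. mt-Nd5 had 3025 and 2850 scaled counts in VHL-deficient libraries, against 5913 and 8591 in WT libraries (-1.28, SE 0.31, adjusted p = 0.0306). mt-Cytb had 1657 and 1560 in VHL-deficient libraries, against 3109 and 4854 in WT libraries (-1.27, SE 0.32, adjusted p = 0.0464). The VHL-deficient pools lay close together and the WT pools apart. mt-Nd4 (-0.92, adjusted p = 0.0568) and mt-Co1 (-1.39, adjusted p = 0.0823) did not pass. The count was 0 with only the compared groups fitted and without either VHL-deficient library or WT replicate 2, 4 without WT replicate 1 and 5 without either VHL-deficient nonTrm library. It was 1 without any VHL-deficient day 11, any spleen, either WT nonTrm library or WT day 11 replicate 2 or 3.

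In spleen none of the 10 members was called by limma, none reached an unadjusted p of 0.05, and voom called none and had none at that unadjusted level, where 3.18% of all genes were called. The median log2 fold change was -0.20, against 0.04 over all genes. mt-Co1 had 31801 and 24448 scaled counts in VHL-deficient libraries, against 33252 and 30623 in WT libraries (-0.19, SE 0.40, adjusted p = 0.909). mt-Nd5 had 2961 and 2587 in VHL-deficient libraries, against 3387 and 2981 in WT libraries (-0.20, SE 0.31, adjusted p = 0.863). mt-Nd1, mt-Nd4 and mt-Nd5 were below WT in every VHL-deficient library, by narrow margins, as were 19.8% of all genes, and the other 7 overlapped. Log2 fold changes ran from -0.39 for mt-Rnr1 to 0.41 for mt-Nd3.

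The difference between the genotype effects in tumor and in spleen was tested in the same fit. It was negative for all 10 members, with a median of -1.0, but none was called by limma (lowest adjusted p = 0.428), where 0.0698% of all genes were called. At an unadjusted p under 0.05 there were 4 members, where 9.61% of all genes lay at that level, and voom called 0 with 3 at that unadjusted level. For mt-Nd5 the interaction was -1.08 (SE 0.43, adjusted p = 0.438) and for mt-Co1 -1.20 (SE 0.56, adjusted p = 0.507). No difference of the genotype effect between tumor and spleen was therefore detected for the members.

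Within WT cells some members differed by tissue. mt-Nd1, mt-Nd5 and mt-Cytb were higher in unsplit WT tumor cells than in WT spleen cells, 3 of the 10 members, where 13.2% of all genes were called higher. mt-Nd1 had 6751 and 9506 scaled counts in WT tumor libraries, against 3749 and 3605 in WT spleen libraries (log2 fold change 1.12, SE 0.33, adjusted p = 0.0208). mt-Nd5 had 5913 and 8591 in WT tumor libraries, against 3387 and 2981 in WT spleen libraries (1.17, SE 0.31, adjusted p = 0.0101). mt-Cytb had 3109 and 4854 in WT tumor libraries, against 2279 and 1839 in WT spleen libraries (0.92, SE 0.32, adjusted p = 0.0474). The median over the 10 members was 0.86, against 0.08 over all genes. The count was 0 with only the compared groups fitted, 0 without WT tumor replicate 2 or WT spleen replicate 2, 1 without WT spleen replicate 1 and 5 without either VHL-deficient nonTrm library. In VHL-deficient cells the same comparison called none of the 10 members by limma, with none at an unadjusted p under 0.05 and none by voom at either level, while 15.4% of all genes were called. Its median log2 fold change was -0.18. mt-Nd5 had 3025 and 2850 scaled counts in VHL-deficient tumor libraries, against 2961 and 2587 in VHL-deficient spleen libraries.

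No member passed the test between the Trm and nonTrm sorts. In VHL-deficient cells no member was called by limma, none had an unadjusted p under 0.05 and voom had none at either level, where 0.00698% of all genes were called, and the median log2 fold change, Trm over nonTrm, was -0.02. Without VHL-deficient nonTrm replicate 1 a single member was called. In WT cells the median was 0.40 and no member was called by limma, where 0.3% of all genes were called. There 1 member, mt-Cytb, reached an unadjusted p under 0.05, as 11.4% of all genes did, with 5784 ± 1276 scaled counts in WT Trm cells and 3401 ± 52.2 in WT nonTrm cells (SD, n = 2 each; 0.75, SE 0.32, adjusted p = 0.38), and voom called 0 with 2 at that unadjusted level. The genotype by sort interaction called none of the 10 members and 0% of all genes, with none at an unadjusted p under 0.05 and none by voom at either level, and had a median of -0.47.

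Day 11 tumor was set against unsplit day 7 tumor, a comparison in which the day cannot be told apart from the number that ends the library titles, which differs between the days. No member was called in either genotype or for the interaction of genotype and day by limma, none reached an unadjusted p of 0.05, and voom had none at either level, where 0% of all genes were called. The median log2 fold change, day 11 over day 7, was -0.17 in VHL-deficient cells and 0.05 in WT cells.

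Ratios between members were compared within libraries. Reads of mt-Nd1 per read of mt-Co1, a ratio that needs no scaling between libraries and that was chosen after its values were seen, are given as a description with no test. In day 11 tumor the ratio was 0.2355, 0.2178 and 0.2356 in VHL-deficient libraries, against 0.138, 0.125 and 0.176 in WT libraries. In unsplit day 7 tumor it was 0.214 and 0.176 in VHL-deficient libraries, against 0.148 and 0.120 in WT libraries. Trm cells had 0.187 and 0.170 in VHL-deficient libraries, against 0.131 and 0.160 in WT libraries. NonTrm cells had 0.169 and 0.190 in VHL-deficient libraries, against 0.106 and 0.145 in WT libraries. The VHL-deficient libraries were above the WT libraries in all 4 tumor settings. In spleen the genotypes overlapped, with 0.113 and 0.141 in VHL-deficient libraries, against 0.113 and 0.118 in WT libraries. mt-Nd2 per mt-Co1 was 0.0292 to 0.0350 in VHL-deficient day 11 libraries, against 0.0173 to 0.0194 in WT day 11 libraries. It overlapped between genotypes in nonTrm cells, at 0.0206 and 0.0384 in VHL-deficient libraries, against 0.0145 and 0.0244 in WT libraries, and in spleen, at 0.0209 and 0.0216 in VHL-deficient libraries, against 0.0239 and 0.0205 in WT libraries. mt-Rnr2 per mt-Co1 overlapped in day 11 tumor, at 9.75 to 10.2 in VHL-deficient libraries, against 8.97 to 9.93 in WT libraries. It also overlapped in unsplit day 7 tumor, nonTrm cells and spleen. In Trm cells it did not, at 11.59 and 10.91 in VHL-deficient libraries, against 9.14 and 9.11 in WT libraries. mt-Rnr2 per mt-Rnr1 was 46.1 to 56.0 in VHL-deficient day 11 libraries, against 59.5 to 62.3 in WT day 11 libraries. In all 4 tumor settings this ratio was lower in VHL-deficient libraries without overlap, and in spleen the genotypes overlapped. These ratios carry no test either.

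**Figure D4:**
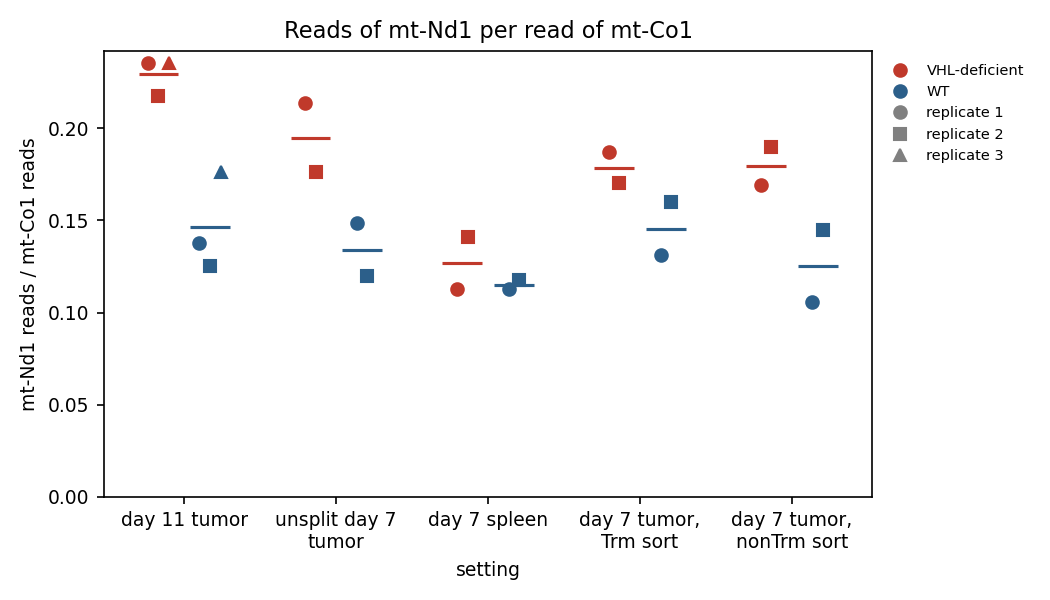
Reads of mt-Nd1 per read of mt-Co1 (y axis) in each library, by setting, with VHL-deficient libraries (red) left of WT libraries (blue), the marker shape giving the replicate and the bar the group mean. In the 4 tumor settings VHL-deficient libraries lie above the WT libraries of the same setting, and in spleen they overlap.

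Transfer RNAs were close to the floor of the assay, with 0 to 34 reads per library in all. mt-Tp (proline) had 114 reads in 20 of 22 libraries, mt-Tt (threonine) 48, mt-Tq (glutamine) 31 and mt-Tl1 (leucine) 28. The sequences of the first 3, the transfer RNAs with most reads, are shown from GENCODE's mm10 annotation, with the anticodon in capitals.
mt-Tp (chrM:15356-15422, minus strand): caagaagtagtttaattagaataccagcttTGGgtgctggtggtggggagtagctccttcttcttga
mt-Tt (chrM:15289-15355, plus strand): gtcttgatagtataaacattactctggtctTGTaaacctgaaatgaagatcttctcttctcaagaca
mt-Tq (chrM:3772-3842, minus strand): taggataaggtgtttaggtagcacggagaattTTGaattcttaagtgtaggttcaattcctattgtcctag

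mt-Tp was the single transfer RNA to reach the filter. In the Trm sort it had 0 and 4 reads in VHL-deficient libraries, against 15 and 18 reads in WT libraries (adjusted p = 0.0446 by limma). That call held in 16 of 31 alternative settings, with an adjusted p between 0.0266 and 0.248. With counts this low the fitted fold depends on the added 1, so no fold is given. In day 11 tumor its adjusted p was 0.402. Reads of precursors and of mature transfer RNAs cannot be told apart here.

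Nuclear partners of the mitochondrial messages were examined in lists by complex. In day 11 tumor the median log2 fold changes of the nuclear subunits were -0.64 for complex I (36 genes tested), -0.75 for complex III (9 genes), -0.72 for complex IV (12 genes) and -0.66 for ATP synthase (17 genes), against 0.07 over all genes tested. Those of the mitochondrial messages were -1.22 over 6 for complex I, -1.56 for mt-Cytb and -1.75 for mt-Co1. Complex II, whose 4 subunits are all nuclear, had a median of -0.21. Few nuclear subunits passed the test, all of them lower, where 2.39% of all genes were called lower, and none higher, where 4.47% were. They were Cyc1 of complex III, Ndufa4 and Cox5a of complex IV and Atp5b of ATP synthase, with none of complex I or II. Ndufa4 averaged 111 ± 21.98 scaled counts in VHL-deficient cells and 323 ± 87.8 in WT cells (SD, n = 3 each; log2 fold change -1.51, SE 0.37, adjusted p = 0.0164). Cox5a averaged 437 ± 25.4 in VHL-deficient cells and 1038 ± 172 in WT cells (-1.24, SE 0.34, adjusted p = 0.0324). Cyc1, cytochrome c1, had a log2 fold change of -0.86 (SE 0.24, adjusted p = 0.0372) and Atp5b, the catalytic beta subunit, -0.85 (SE 0.23, adjusted p = 0.0273). Sdhb, the iron-sulfur subunit of complex II, averaged 583 ± 17.8 in VHL-deficient cells and 1078 ± 80.25 in WT cells and did not pass (adjusted p = 0.0565).

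**Figure D5:**
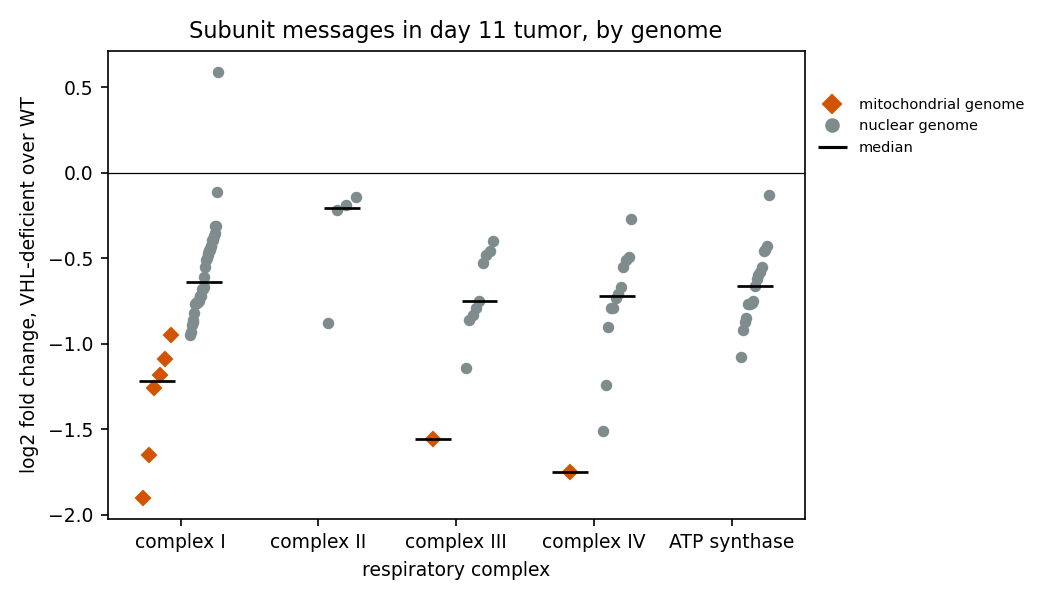
Log2 fold change, VHL-deficient over WT, in day 11 tumor of each tested subunit message by respiratory complex, for mitochondrial (orange diamonds) and nuclear genes (grey circles), spread sideways by rank, with the median as a bar. The mitochondrial medians lie at -1.22 to -1.75 and the nuclear ones at -0.21 to -0.75.

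The same lists in the Trm sort held 9 genes called lower and none called higher, where 5.03% of all genes were called lower and 5.07% higher. Ndufa4, Cox5a, Cyc1 and Atp5b were again among them, with Ndufab1 and Ndufv1 of complex I, Uqcrc1 and Uqcrc2 of complex III and Sdhb of complex II, the last 5 named after their values were seen. Medians ran from -0.75 for complex II to -0.93 for complex IV. In unsplit day 7 tumor, spleen and nonTrm no nuclear subunit was called, and in spleen the medians were 0.22 for complex I, 0.01 for complex III, 0.42 for complex IV and 0.09 for ATP synthase. For complex II the summed level was 2286 to 2474 scaled counts in VHL-deficient spleen libraries, against 2746 to 2911 in WT spleen libraries. The sums of the other lists overlapped between genotypes there.

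Genes that make, process and maintain mitochondrial RNA and DNA formed further lists. Of 9 tested genes of mitochondrial transcription none was called in any of the 5 settings. Tfam, which packages the mitochondrial genome and starts its transcription, averaged 217 ± 16.1 scaled counts in VHL-deficient and 302 ± 32.2 in WT day 11 tumor cells (log2 fold change -0.47, SE 0.24, adjusted p = 0.252). Polrmt, the mitochondrial RNA polymerase, averaged 192 ± 27.4 in VHL-deficient cells and 196 ± 62.9 in WT cells (0.02, SE 0.31, adjusted p = 0.981). The list median was -0.30 in day 11 tumor and -0.72 in nonTrm cells. Of 32 genes of mitochondrial RNA processing and decay none was called in day 11 tumor. In Trm cells, where 5.03% of all genes were called lower, 3 of the 32 were, named after their values were seen. These were Rexo2, an exonuclease for short RNA (86.97 ± 13.2 scaled counts in VHL-deficient Trm cells and 399 ± 66.8 in WT Trm cells, adjusted p = 1.27e-04), Mrm3, a methyltransferase of the large ribosomal RNA, and Ptcd2. Of 8 regulators of mitochondrial biogenesis none was called in day 11 tumor. Nrf1, a transcription factor for nuclear respiratory genes, had a log2 fold change of -0.08 (adjusted p = 0.879) there. Myc was called lower in Trm cells, as 5.03% of all genes were (158 ± 65.9 scaled counts in VHL-deficient and 382 ± 67.7 in WT Trm cells, adjusted p = 0.0199).

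Of 17 genes of mitochondrial DNA copying and upkeep, Slc25a36, a pyrimidine nucleotide carrier, was called in day 11 tumor, higher in VHL-deficient cells. It averaged 887 ± 86.2 scaled counts in VHL-deficient cells and 316 ± 57.5 in WT cells (log2 fold change 1.5, SE 0.24, adjusted p = 4.33e-04). It was also higher in VHL-deficient cells of the other 3 tumor settings, at 1.41 to 1.54, where 1.68% (unsplit day 7 tumor), 5.07% (Trm) and 1.65% (nonTrm) of all genes were called higher, and was not called in spleen. Of 13 mitophagy receptors and mitochondrial proteases, Bnip3 and Bnip3l rose in day 11 tumor, where 4.47% of all genes were called higher. Both are receptors on the outer mitochondrial membrane and known HIF targets. Bnip3 averaged 3076 ± 308 scaled counts in VHL-deficient day 11 tumor cells and 207 ± 63.9 in WT cells (3.92, SE 0.28, adjusted p = 2.66e-08). Bnip3l averaged 1556 ± 91.4 in VHL-deficient cells and 377 ± 38.3 in WT cells (2.05, SE 0.16, adjusted p = 8.88e-08). Both were also called higher in the other 3 tumor settings. Bnip3 was also higher in VHL-deficient spleen, at 1192 ± 7.75 against 29.95 ± 18.65 in WT spleen (SD, n = 2 each; 5.41, SE 0.34, adjusted p = 2.31e-09 by limma), where the mitochondrial messages were not called and 2.44% of all genes were called higher. Bnip3l was not called in spleen. Any part of these receptors in the levels of the members was not tested. Phb2 of the same list, named after its values were seen, was called lower in Trm cells, where 5.03% of all genes were. It averaged 968 ± 265 scaled counts in VHL-deficient and 1855 ± 405 in WT Trm cells (-0.95, SE 0.27, adjusted p = 0.0312 by limma).

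The nuclear copies were read as a list of their own. Of 7 that were tested, Gm13340, a chromosome 2 copy of mt-Co1 with 97.6% identity over its whole length, was called in day 11 tumor. It averaged 33.3 ± 6.02 scaled counts in VHL-deficient cells and 133 ± 19.8 in WT cells (log2 fold change -1.97, SE 0.34, adjusted p = 9.73e-04), a change close to that of mt-Co1 itself. In Trm cells it averaged 55.4 ± 13.5 in VHL-deficient and 196 ± 35.8 in WT cells (-1.82, SE 0.42, adjusted p = 0.00843). Whether its reads came from the nuclear or the mitochondrial sequence was not tested. The nuclear long RNAs that served as a mark of RNA quality had a median of 0.43 over 6 genes in day 11 tumor with none called. Malat1 averaged 7380 ± 377 scaled counts in VHL-deficient day 11 cells and 6915 ± 450 in WT cells (adjusted p = 0.902). In Trm cells 1 of the 6, Neat1, was called higher in VHL-deficient cells (1180 ± 701 scaled counts, against 287 ± 161 in WT cells, adjusted p = 0.00694), and its part in the fall of the members there was not tested.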

How the data were processed

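RNA of sorted cells was sequenced in 22 libraries. Per the labels' protocols, RNA was captured on beads and the PrepX kit was used for libraries. The submitters' processing notes name STAR, featureCounts, DESeq and the mm10 build, without versions. The deposited table holds a signal per gene and library, which the authors made as a read count divided by a size factor plus 1 as judged from the values: with the offset of 1 removed, 100% of values were whole multiples of a step per library (tolerance 0.01 reads, largest deviation 0.000392). Its header states 55 samples and it has 22 columns, all used. Reads and scaled counts come from that step. Genes with at least 10 scaled counts in 2 libraries (14327 of 46297 rows) were tested with limma 3.58.1 in R 4.3.3 on log2(scaled count + 1), with 10 group means sharing 1 spread, moderated with a trend, and Benjamini-Hochberg adjustment over all of them at 0.05. Fold changes are on that scale. The deposited values are not themselves counts, and the planned count test was not run, although reads were recovered as above. Instead, voom on recovered reads was added after seeing the data. The fit was run on simulated counts with the same dispersion for every gene, as a check of the code alone. Copies were found by blastn against GENCODE M21 transcripts at a minimum identity of 90%.

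Members, lists and tests were chosen with earlier results of these data known. Every tested mt- row is described, and of other genes Vhl, up to 4 called members per list in day 11 tumor, by the smallest adjusted p, and otherwise 2 well-known or abundant ones. The label V was read as VHL-deficient.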

Additional observations from a re-analysis of the deposited data

How the results depend on the processing

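No tested member changed direction where it was called: over all members, comparisons and settings, 4715 values stayed on their side of the threshold, 125 lost and 74 gained a call. The counts here include mt-Tp. In unsplit day 7 tumor the 2 members called became 1 with no filter on low values, 4 with a filter at 50 scaled counts, 1 without the variance trend and 0 with only the compared groups fitted. In Trm the 7 became 3 with only the compared groups and 11 with voom. In nonTrm the 2 became 0 with only the compared groups and 4 with voom. In WT tumor against spleen the 3 became 0 with only the compared groups. A fit with fewer libraries has fewer degrees of freedom by construction; other causes were not tested. The spleen share ratio of 0.706 became 0.84 with summed scaled counts. The nonTrm share ratio of 0.329 became 0.378 without nuclear ribosomal RNA in the denominator, 0.376 with messages alone and 0.383 with summed scaled counts.

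With each library left out in turn, members called ranged from 4 to 10 in day 11 tumor, 0 to 5 in unsplit day 7 tumor, 1 to 10 in Trm, 0 to 6 in nonTrm, 0 to 1 for Trm against nonTrm in VHL-deficient cells and 0 to 5 for tumor against spleen in WT cells, and were 0 throughout in spleen and in every other comparison. The share ratios ranged from 0.32 to 0.355 in day 11 tumor, 0.426 to 0.533 in unsplit day 7 tumor, 0.627 to 0.785 in spleen, 0.356 to 0.469 in Trm and 0.301 to 0.357 in nonTrm. Where this leaves 1 library in a group, that library is assumed to vary like the others. Rescaling by TMM moved the median of all genes by over 0.1 in the genotype by sort interaction alone (0.11).

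Replicate numbers are shared between groups but nothing given ties them to a pairing. Within a setting, same-numbered VHL-deficient and WT libraries correlated at 0.043, 0.105 and 0.104 in day 11 tumor and 0.029 in unsplit tumor. The values were 0.118 in spleen, 0.236 in Trm and 0.271 in nonTrm. Such correlations between sorts or between tissues were not examined. With a replicate block the count was 5 in unsplit day 7 tumor and 5 in nonTrm. The planned quasi-likelihood test on counts was not run. Transfer RNAs, at 0 to 34 reads per library, are limited by depth.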
